A study of Mus musculus with 18 samples.

Results

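The genes described here are the PGC-1 coactivators and the transcription factors, receptors and enzyme that work with them in mitochondrial biogenesis. They were taken from the count table by symbol, as Ppargc1a, Ppargc1b, Pprc1, Esrra, Nrf1, Gabpa, Tfam, Ppara and Sirt1. These are 9 of the 54532 genes in the table, and all 9 were among the 18291 genes that passed the filter on low counts. The set was chosen by measured values: Ppargc1a was selected on being higher in CRS than in CON and lower in C10 than in CRS. For both of those contrasts the members are therefore described by their values, with no p; the number called stands beside the share of all genes called, as a description only.

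PGC-1 alpha, the product of Ppargc1a, is a coactivator: it binds no DNA itself but docks on nuclear receptors and other transcription factors and raises the output of their target genes. Through the estrogen-related receptor alpha (Esrra), the nuclear respiratory factor NRF1 (Nrf1) and the ETS factor GABP (Gabpa) it drives nuclear genes of the respiratory chain and Tfam, which packages and transcribes mitochondrial DNA. Through PPAR alpha (Ppara) it drives fatty acid oxidation, and the deacetylase SIRT1 (Sirt1) raises the activity of the PGC-1 alpha protein. In airway and olfactory epithelium, mitochondria power ciliary beating, ion transport and olfactory signalling.

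The tissue is nasal mucosa of mice, from which poly(A) RNA was sequenced as 18 libraries, 6 for each of 3 groups. C10 is taken to be papain-treated mice that also received the compound C10, which the series title calls an APE1 inhibitor, at 10 mg/mL and 10 µL per side once a day for 10 days from the opening papain dose. CRS, the model of chronic rhinosinusitis, received 20 µg of the plant protease papain in 20 µL of PBS intranasally on days 0 to 2 and again on days 7 to 11. What CON received is not stated in the labels, and neither are strain, age, sex, hour of collection or whether each library is a mouse of its own. P-values thus measure the spread between these libraries, which may be technical. No vehicle is given for CRS, so an effect of the compound and one of the added daily instillation cannot be told apart.

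Library totals were 15883573 to 18128186 counts in C10, 16531779 to 17523368 in CRS and 16510920 to 18433866 in CON. The olfactory neuron marker Omp was present in every library, from 1239 to 3485 CPM (read counts scaled to a common library size with TMM factors), so each held olfactory tissue. The CRS libraries differed among themselves in the RNA of cell type markers: 7 summed macrophage markers stood at 427 CPM in CRS 2 and 791 CPM in CRS 5, against 3671 CPM in CRS 1 and 1277 to 2392 CPM in the remaining CRS libraries. CRS 1 also had the lowest sum of 9 nasal gland markers of any library, at 17857 CPM. Results on Ppargc1a are given below with and without CRS 2 and CRS 5.

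Ppargc1a (ENSMUSG00000029167) lies on chromosome 5 from 51454250 to 51567726 on the minus strand, in the mm10 build. It stood at 38.5 CPM in the lowest C10 library, 39.3 CPM at the median and 46.1 CPM in the highest. In CRS the lowest, median and highest libraries had 49.5, 60.9 and 78.6 CPM, and in CON they had 27.5, 34.6 and 42.7 CPM. Every CRS library thus lay above every C10 library and above every CON library, while C10 and CON overlapped. Ranges without overlap, in either direction, were found for 0.880% of all tested genes in C10 against CRS and 0.656% in CRS against CON; for Ppargc1a they follow from its selection.

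Means were 41.1 ± 3.45 CPM in C10, 63.4 ± 10.0 CPM in CRS and 35.6 ± 6.14 CPM in CON (SD, n = 6 each). The log2 fold change of Ppargc1a was 0.83 ± 0.12 (SE) in CRS against CON, a 1.78-fold difference, and -0.62 ± 0.12 in C10 against CRS. Since both contrasts contain the same CRS libraries, high CRS values enter them with opposite sign. Against CON, the C10 libraries remained slightly higher, by 0.21 ± 0.12 on the log2 scale: 6 of 6 lay above the CON median and 2 above every CON library. That difference is the sum of the contrasts that chose the gene and is given without a test.

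Of the 9 members, edgeR called 1 in CRS against CON at an adjusted p under 0.05, where 0.00547% of all tested genes were called, and 1 in C10 against CRS, where 0.0820% were called. Both calls are Ppargc1a and follow from the choice, so nothing is read from them or from where they end. The call in CRS against CON ended without CON 1, 4 or 5, or CRS 4 or 6, with 0 members called each time. The call in C10 against CRS ended without CON 1 or 4, without CRS 3, 4, 5 or 6, and without any single C10 library, again at 0 members. The fold changes themselves ran from 0.76 to 0.90 in CRS against CON and from -0.70 to -0.55 in C10 against CRS with 1 library left out. Without CRS 2 and CRS 5 together they were 0.94 ± 0.12 and -0.74 ± 0.12.

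**Figure D1:**
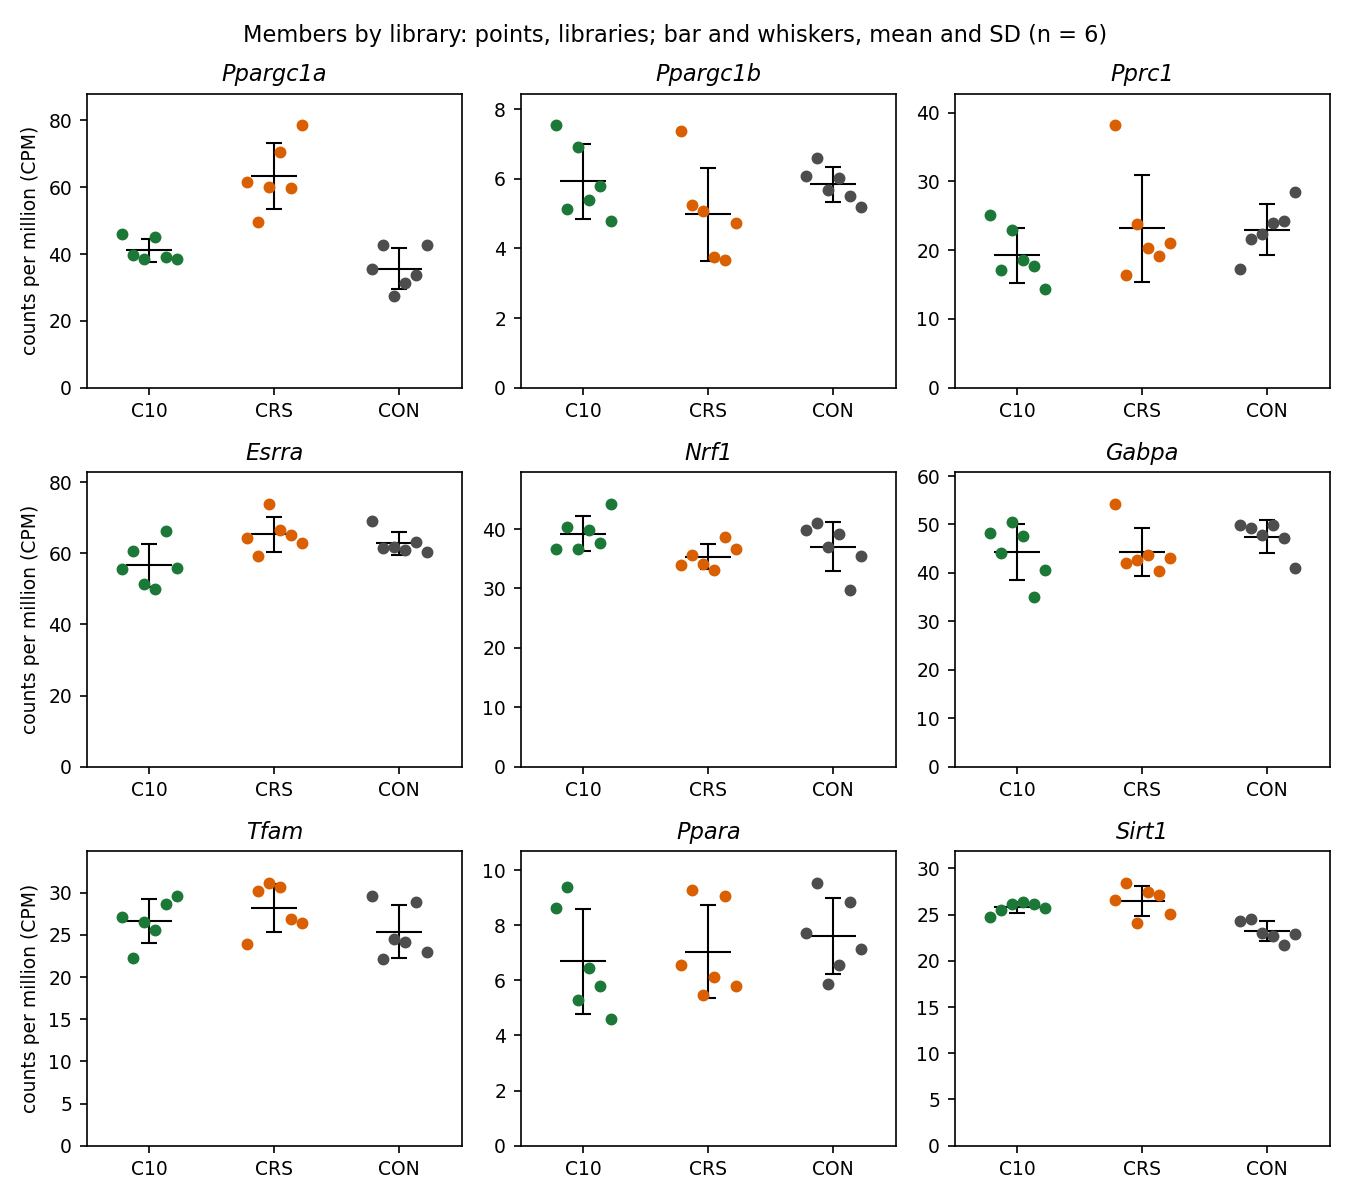
CPM of each of the 9 members in each library of C10, CRS and CON (points), with the group mean as a bar and the SD as whiskers (n = 6). Ppargc1a is the only panel in which all CRS points, from 49.5 to 78.6 CPM, lie above all C10 and all CON points.

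Several cell type lists differed between the groups, some in the direction of Ppargc1a and some not. The sum of the 9 nasal gland markers had a median of 44209 CPM in C10, 61010 CPM in CRS and 48853 CPM in CON, though not each gene followed this order. The 5 immature olfactory neuron markers had medians of 377 CPM in C10, 251 CPM in CRS and 255 CPM in CON. The 7 macrophage markers had medians of 1145 CPM in C10, 1797 CPM in CRS and 2051 CPM in CON. The median of the general epithelial markers, like Ppargc1a, was highest in CRS. The summed CPM of Epcam, Cdh1, Krt8 and Krt18, all 4 of them detected, was 1491 to 1713 in C10 (median 1643), 1549 to 2044 in CRS (median 1899) and 1503 to 1669.5 in CON (median 1586). The ranges overlapped, and once group means were removed the sum had a Pearson r of -0.01 with Ppargc1a over the 18 libraries. The sum of the 4 basal cell markers was lower in C10 (300 to 410.2 CPM, median 356) than the CRS median, which was 449 CPM in a range of 319 to 599 CPM, while CON had 373 to 581 CPM (median 427). Taken singly, the highest C10 library exceeded the CRS median for Krt5 (175.6 against 162.0 CPM), Trp63 (46.1 against 45.3) and Krt15 (171.2 against 148.5). For Krt14 it did not (67.5 against 70.2 CPM). The sum of the 7 ciliated cell markers ran the other way from the basal sum, with a median of 945 CPM in C10 (536 to 1128), 688 CPM in CRS (527 to 782) and 862 CPM in CON (699 to 1015). Among them Rsph1 alone had its highest median in CRS, with 61.0 CPM in C10, 70.5 CPM in CRS and 56.6 CPM in CON.

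The 5 smooth muscle markers summed to 495 ± 142 CPM in C10, 482 ± 117 CPM in CRS and 711 ± 85.9 CPM in CON (SD, n = 6 each). The ranges of these 3 lists overlapped between groups, too. Once group means were removed, the Pearson r with Ppargc1a was -0.37 for basal cells, 0.13 for ciliated cells and -0.33 for smooth muscle. The part of these lists in the group difference of Ppargc1a was not tested. In whole tissue, fewer cells of a type and less RNA per cell cannot be told apart.

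Markers of skeletal muscle and most markers of fat, tissues known for their Ppargc1a, were near 0. Of 9 skeletal muscle markers, Tnnc2 was at 0 counts in all 18 libraries, and the list summed to 2.35 to 3.55 CPM in C10, 2.63 to 4.52 CPM in CRS and 2.50 to 43.6 CPM in CON. The value of 43.6 CPM belongs to CON 5, whose Ppargc1a (33.7 CPM) lay inside the CON range. The brown fat gene Ucp1 and the adipocyte hormone Lep had 4 counts and 1 count over all libraries, and the adipocyte genes Adipoq, Plin1 and Cidec each had a median of at most 0.141 CPM in every group. The sixth gene of that list, Cidea, carried nearly all of its sum, with a median of 8.43 CPM in C10, 7.99 CPM in CRS and 7.23 CPM in CON; the list summed to 6.03 to 9.70 CPM in C10, 6.50 to 13.4 CPM in CRS and 6.31 to 12.9 CPM in CON. Summed levels of none of the 11 cell type lists separated any pair of groups without overlap.

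Ppargc1a has more than one start. GENCODE M21 lists 5 transcripts, of which 2 begin within 50 bases of the outer start at 51567726 and 3 begin 13804 to 13855 bases downstream. The deposited counts are per gene and sum over them, so the starts cannot be separated. In mouse skeletal muscle the upstream promoter is known for its response to exercise and beta-adrenergic signals, which act through cyclic AMP and the factor CREB. The 250 bases before the RefSeq start (build GRCm38.p6, chr5:51567726-51567975, minus strand) are shown because they belong to that outer start of the gene the results turn on. Capitals mark the only match to the 6 bases TGACGT of the cyclic AMP response element, here on the opposite strand and beginning 50 bases before the start.
Ppargc1a: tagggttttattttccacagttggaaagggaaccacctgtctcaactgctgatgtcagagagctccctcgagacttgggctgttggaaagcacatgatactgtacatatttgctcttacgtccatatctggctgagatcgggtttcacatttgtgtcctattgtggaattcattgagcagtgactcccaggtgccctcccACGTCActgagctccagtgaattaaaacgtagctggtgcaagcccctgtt

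TGACGT occurs on either strand in 7.51% of the 32851 RefSeq promoter windows, each running from 250 bases before to 50 bases after a start. Among the members with an entry, 8 of 9, it was found in Ppargc1a alone, and the full palindrome TGACGTCA, present in 1.79% of windows, was found in none. Some of the members' promoters also carry letters of other members' binding motifs. GCATGCGC, the core of the palindromic NRF1 motif, is in 2.71% of windows, among them those of Ppara and Esrra, and in Ppara matches on both strands overlap. CCGGAAG, bound by ETS factors such as GABP, is in 8.86% of windows, among them those of Tfam and Gabpa itself. The estrogen-related receptor motif AAGGTCA is in 4.72% of windows and in none of the members'. Matches to motifs of this length are a description of these windows and not binding sites. The matched stretches follow as a description, with 12 bases on each side and the match in capitals. Where the match is on the opposite strand its reverse complement is printed.
Tfam (chr10:71238073-71238103, minus strand): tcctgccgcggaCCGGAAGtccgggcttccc
Gabpa (chr16:84835019-84835049, plus strand): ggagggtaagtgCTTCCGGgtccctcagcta
Ppara (chr15:85735733-85735766, plus strand): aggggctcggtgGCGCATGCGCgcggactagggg
Esrra (chr19:6921823-6921854, minus strand): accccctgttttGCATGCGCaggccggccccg

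The other PGC-1 coactivators did not show the pattern of Ppargc1a. Ppargc1b (ENSMUSG00000033871, chromosome 18 from 61298136 to 61400431) encodes PGC-1 beta, which shares the mitochondrial targets of PGC-1 alpha. It had 4.78, 5.60 and 7.55 CPM in the lowest, median and highest C10 libraries, 3.68, 4.91 and 7.37 CPM in CRS, and 5.18, 5.86 and 6.60 CPM in CON. In 4 of 6 CRS libraries it was below every CON library, but CRS 1, at 7.37 CPM, was above all of them. Its log2 fold changes were 0.25 ± 0.17 in C10 against CRS and -0.23 ± 0.17 in CRS against CON, opposite in sign to those of Ppargc1a. Their size depended on single libraries: they were 0.40 and -0.38 without CRS 1, and 0.16 and -0.15 without CRS 5.

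Pprc1 (ENSMUSG00000055491, chromosome 19 from 46044886 to 46072915) encodes PRC, a PGC-1-related coactivator of growth-regulated mitochondrial genes. It had 14.3, 18.1 and 25.1 CPM in the lowest, median and highest C10 libraries, 16.4, 20.7 and 38.2 CPM in CRS, and 17.3, 23.1 and 28.5 CPM in CON. The groups overlapped, and CRS 1 held the highest value. The log2 fold change was -0.26 ± 0.18 in C10 against CRS and 0.01 ± 0.18 in CRS against CON. Without CRS 1 they were -0.06 in C10 against CRS and -0.19 in CRS against CON, and without CRS 2 and 5 they were -0.44 and 0.18, so neither has a settled size and the sign in CRS against CON depends on the libraries.

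Levels of different genes can be compared per length only, as FPKM, the authors' value scaled by gene length and sequencing depth. Ppargc1a made up the largest part of the summed FPKM of the 3 coactivators in all 18 libraries. Its share had a median of 61.8% in C10 (55.0 to 65.3%), 70.3% in CRS (57.4 to 75.0%) and 54.3% in CON (48.7 to 58.8%). The lowest CRS share belongs to CRS 1, where Pprc1 took 31.2%. Shares add up to the whole, so each depends on the levels of all 3 genes, and the part of each gene was not separated. Ppargc1b had a median share of 14.2% in C10, 8.42% in CRS and 15.5% in CON, and Pprc1 one of 24.0% in C10, 20.1% in CRS and 33.0% in CON. The summed level of the family had a median of 10.1 FPKM in C10, 14.0 FPKM in CRS and 9.54 FPKM in CON.

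**Figure D2:**
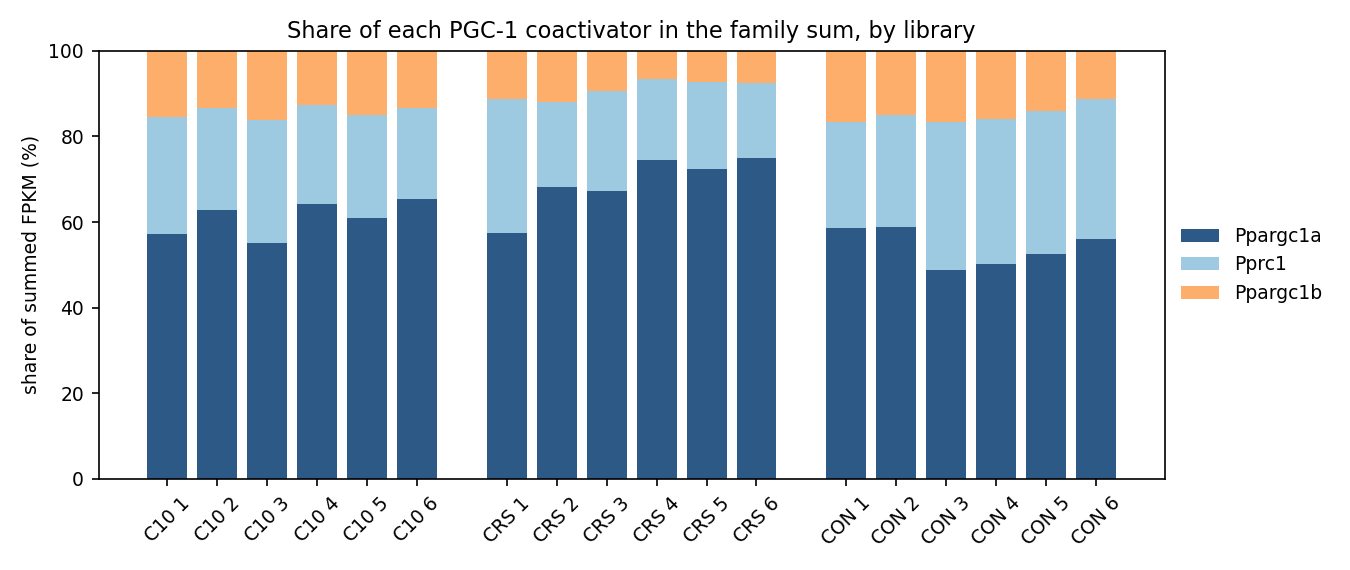
Share of Ppargc1a, Pprc1 and Ppargc1b in the summed FPKM of the PGC-1 coactivators, in percent, with 1 bar per library of C10, CRS and CON. The share of Ppargc1a reached 75.0% in CRS 6 and was lowest, at 48.7%, in CON 3; CRS 1 stood at 57.4%.

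The partners of PGC-1 alpha on DNA differed little between the groups. Esrra (ENSMUSG00000024955, chromosome 19 from 6910977 to 6921813) encodes the receptor through which PGC-1 alpha reaches many respiratory genes, and it is itself a PGC-1 alpha target. It had 49.9, 55.6 and 66.3 CPM in the lowest, median and highest C10 libraries, 59.3, 64.7 and 73.9 CPM in CRS, and 60.3, 61.6 and 69.2 CPM in CON. In 4 of 6 C10 libraries Esrra lay below every CRS and every CON library, and the other 2 lay inside both ranges. Its log2 fold change was -0.21 ± 0.07 in C10 against CRS and 0.06 ± 0.07 in CRS against CON, each of the same sign as that of Ppargc1a and smaller.

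Nrf1 (ENSMUSG00000058440, chromosome 6 from 30047988 to 30153458) had 36.6, 38.8 and 44.2 CPM in the lowest, median and highest C10 libraries. In CRS it had 33.1, 34.8 and 38.7 CPM, and in CON 29.7, 38.1 and 41.0 CPM. All 6 C10 libraries were above the CRS median and 3 above every CRS library. Nrf1 had a log2 fold change of 0.15 ± 0.08 in C10 against CRS and -0.07 ± 0.08 in CRS against CON, opposite in sign to Ppargc1a.

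Gabpa (ENSMUSG00000008976, chromosome 16 from 84834925 to 84863779), the DNA-binding subunit of GABP, had 35.1, 45.9 and 50.4 CPM in the lowest, median and highest C10 libraries. It had 40.3, 42.9 and 54.2 CPM in CRS and 41.0, 48.6 and 49.9 CPM in CON, so that all groups overlapped. Its log2 fold change was 0.00 ± 0.09 in C10 against CRS and -0.10 ± 0.09 in CRS against CON. In GENCODE M21, 6.98% of its exon bases are shared with Atp5j on the other strand, and the kit is not stated to keep the strand, so those reads cannot be told apart. For Sirt1 the shared part is 1.22%, and 5 members share none. It is 3.74% for Esrra and 2.82% for Pprc1, but their GENCODE M21 exons (4387 bases for Esrra, 6284 for Pprc1) are not those behind the count table, which gives lengths of 2539 and 7516 bases. FPKM levels of these 2 genes rest on the lengths in the count table.

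Ppara (ENSMUSG00000022383, chromosome 15 from 85734983 to 85802819), the receptor of fatty acid oxidation genes, had 4.59, 6.13 and 9.40 CPM in the lowest, median and highest C10 libraries. It had 5.47, 6.35 and 9.27 CPM in CRS and 5.86, 7.43 and 9.53 CPM in CON. These ranges nearly coincide, and the log2 fold changes were -0.07 ± 0.19 in C10 against CRS and -0.11 ± 0.19 in CRS against CON. Without CRS 2 and CRS 5 they were 0.14 and -0.33, so the sign in C10 against CRS rests on those libraries.

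Tfam (ENSMUSG00000003923, chromosome 10 from 71225464 to 71238280) stands at the end of the pathway, as the factor that coats and transcribes mitochondrial DNA. It had 22.2, 26.8 and 29.6 CPM in the lowest, median and highest C10 libraries, 23.9, 28.5 and 31.1 CPM in CRS, and 22.2, 24.3 and 29.6 CPM in CON. CRS lay above every CON library in 3 of 6 cases. Tfam had a log2 fold change of -0.08 ± 0.09 in C10 against CRS and 0.15 ± 0.09 in CRS against CON.

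Sirt1 (ENSMUSG00000020063, chromosome 10 from 63319005 to 63381704) had the lowest relative spread of the set in C10 and CON. It had 24.8, 25.9 and 26.3 CPM in the lowest, median and highest C10 libraries, 24.1, 26.8 and 28.4 CPM in CRS, and 21.7, 22.9 and 24.5 CPM in CON. All C10 libraries and 5 of 6 CRS libraries were above every CON library. The log2 fold change was -0.04 ± 0.06 in C10 against CRS and 0.19 ± 0.06 in CRS against CON. The coefficient of variation of Sirt1 in CPM was 2.23% in C10, 6.07% in CRS and 4.64% in CON, and in CRS that of Nrf1 was lower still, at 5.89%. By comparison that of Ppargc1a was 8.40% in C10, 15.8% in CRS and 17.3% in CON, and that of Ppara, one of the lowest genes of the set, was 28.6% in C10, 23.8% in CRS and 18.2% in CON. With 404 to 473 counts of Sirt1 in each C10 library, counting error alone would give more than 2.23%. That narrow spread is therefore not read as a trait of Sirt1.

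**Figure D3:**
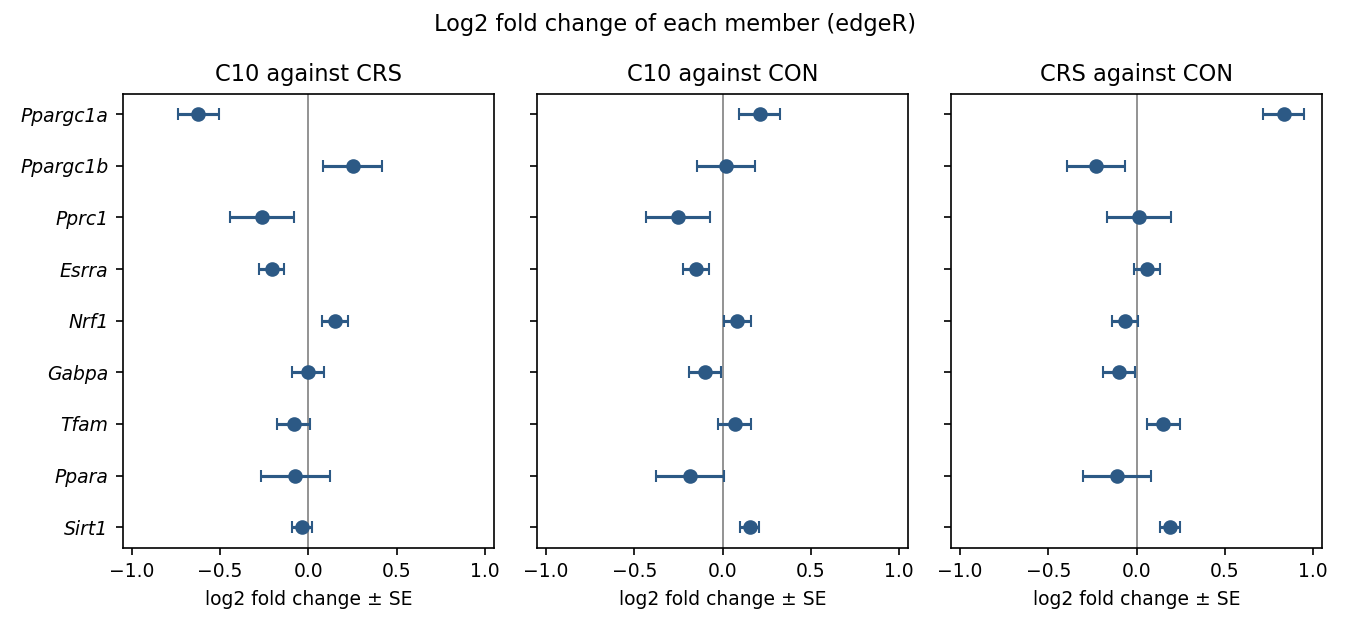
Log2 fold change (point) and SE (bar) of each member in C10 against CRS, C10 against CON and CRS against CON, from edgeR. Ppargc1a is farthest from 0 in the panels that contain CRS, at -0.62 and 0.83, while the other members lie between -0.26 and 0.25.

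The comparison of C10 with CON was not used to choose the members other than Ppargc1a, and it asks whether papain together with the compound left them at another level than in controls. None of these 8 members was called by edgeR, where 0.159% of all tested genes were called, and DESeq2 and limma on FPKM also called 0. The edgeR adjusted p ran from 0.262 to 0.973. At an unadjusted p under 0.05 stood 1 of the 8, against 13.1% of all tested genes.

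That gene is Sirt1, whose C10 mean of 25.8 ± 0.576 CPM stands against 23.2 ± 1.08 CPM in CON (SD, n = 6 each). The log2 fold change was 0.15 ± 0.06, with a 95% interval of 0.04 to 0.27, and the edgeR adjusted p was 0.262. All 6 C10 libraries were above all 6 CON libraries, and it was the only one of the 9 members without overlap in this comparison. The gap was narrow, with 24.8 CPM in the lowest C10 library and 24.5 CPM in the highest CON library. Of all tested genes, 1.82% had ranges without overlap here, in either direction.

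Esrra had a log2 fold change of -0.15 ± 0.07 in C10 against CON, with a 95% interval of -0.30 to 0.0019 (edgeR adjusted p = 0.388), and 5 of 6 C10 libraries were below the CON median. Pprc1 had -0.25 ± 0.18, with an interval of -0.63 to 0.13 (edgeR adjusted p = 0.571), again with 5 of 6 C10 libraries below the CON median. The remaining members lay between -0.18 for Ppara (-0.59 to 0.22; edgeR adjusted p = 0.717) and 0.08 for Nrf1 (-0.07 to 0.24; edgeR adjusted p = 0.663). For Ppargc1b the estimate was 0.02 with an interval of -0.33 to 0.37 (edgeR adjusted p = 0.973), an interval that holds changes of that size in either direction. With 1 library left out, Ppara ran from -0.31 to -0.10 and Nrf1 from 0.02 to 0.12.

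The order of the members by level was nearly the same in each group. Esrra was highest, with a median of 21.6 FPKM in C10, 25.3 FPKM in CRS and 24.0 FPKM in CON, and its range never met that of the next gene. Ppargc1a held place 4 in C10 with 5.89 FPKM, place 2 in CRS with 9.29 FPKM and place 4 in CON with 5.22 FPKM.

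Gabpa had 7.93 FPKM in C10, 7.56 FPKM in CRS and 8.46 FPKM in CON, and Tfam had 6.01 FPKM in C10, 6.31 FPKM in CRS and 5.45 FPKM in CON. In CRS, Ppargc1a exceeded Gabpa in 5 of 6 libraries with overlapping ranges, and in C10 it could not be separated from Tfam, which was above it in 3 of 6 libraries. Below them came Sirt1 (4.81 FPKM in C10, 4.99 in CRS, 4.26 in CON) and Nrf1 (3.73 in C10, 3.38 in CRS, 3.68 in CON), whose ranges did not meet in any group.

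Pprc1 followed with 2.38 FPKM in C10, 2.75 in CRS and 3.05 in CON, then Ppara with 1.58 in C10, 1.66 in CRS and 1.92 in CON. Ppargc1b was lowest, with 1.39 FPKM in C10, 1.24 in CRS and 1.46 in CON. The ranges of Pprc1, Ppara and Ppargc1b overlapped from neighbour to neighbour in all 3 groups.

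Within groups, no relation between Ppargc1a and another member passed a test. After group means were removed from log2 CPM, Pearson's r over the 18 libraries ran from -0.26 with Tfam (permutation p = 0.344; Spearman's rho -0.29, permutation p = 0.284) to 0.23 with Pprc1 (permutation p = 0.391; rho 0.23, permutation p = 0.372). Permutation was within groups, with 100000 draws and two-sided p. Over the 8 relations every adjusted p was 0.973 for Pearson's r and 0.876 for Spearman's rho. Without CRS 4 and CRS 6, the libraries farthest from the median of Ppargc1a, r was -0.29 with Tfam and 0.33 with Pprc1.

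The relation to Ppara differed in sign between groups, with r = 0.52 in C10, -0.69 in CRS and 0.67 in CON. With 6 libraries each, none of these passed an exact permutation test: the two-sided p was 0.249 in C10, 0.133 in CRS and 0.144 in CON. Adjusted over the 8 members, the exact permutation p was 0.580 in C10, 0.863 in CRS and 0.888 in CON.

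The genes most like Ppargc1a over all libraries were ranked among the 12558 genes that averaged 5 CPM or more, as a description without a test. By Pearson's r of log2 CPM over 18 libraries, which includes the group pattern, the closest were Bri3, a small membrane protein of lysosomes (0.80), Hspa9, the mitochondrial heat shock chaperone mortalin (0.78), the zinc finger gene Prdm10 (0.78), the potassium channel subunit Kcng1 (0.77) and the tRNA methyltransferase Trmt10a (0.77). With group means removed, r was 0.31 to 0.50 for these 5. Sirt1 was the highest ranking member, at place 459 with r = 0.55, and Ppargc1b the lowest, at place 11172 with r = -0.41. With group means removed, the closest genes were the ubiquitin-conjugating enzyme Ube2e1 (0.70), the growth factor betacellulin, Btc (0.68), the Ras association domain genes Rassf6 and Rassf2 (0.65 each) and the asparaginase Asrgl1 (0.65). All these values share the same libraries and depth.

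The wider pathway was read from 5 lists of 106 genes, of which 103 were tested. edgeR called 1 of the 103 in C10 against CRS, where 0.0820% of all tested genes were called, and 0 in C10 against CON and in CRS against CON. At an unadjusted p under 0.05 stood 20 of 103 in C10 against CRS (13.2% of all tested genes), 10 in C10 against CON (13.1%) and 14 in CRS against CON (14.0%). DESeq2 called 4 in C10 against CRS (Flcn, Fabp3, Cyc1 and Stk11), 1 in C10 against CON (Plin2) and 1 in CRS against CON (Flcn). Over all genes DESeq2 called 338 in C10 against CRS, 321 in C10 against CON and 156 in CRS against CON. Limma on FPKM called 1 in C10 against CRS, where it called 23 genes over all on log2(FPKM + 1), and 0 in the others.

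The called gene was Flcn, folliculin, a regulator of nutrient signalling at the lysosome whose loss is known to raise Ppargc1a in mouse muscle and fat. It fell to 37.3, 42.0 and 46.9 CPM in the lowest, median and highest C10 libraries, against 60.0, 64.7 and 79.6 CPM in CRS. No C10 library reached the CRS range, and the log2 fold change was -0.70 ± 0.09 (edgeR adjusted p = 0.00246). The call held under every alternative run, with adjusted p from 2.34e-09 by DESeq2 to 0.0302. The pathway lists were chosen with earlier results of these data known, so the place of Flcn in them may not be independent of these values. In CON, Flcn had 38.3, 47.9 and 53.6 CPM, all below the CRS range too. In CRS against CON its log2 fold change was 0.51 ± 0.09, which did not pass (edgeR adjusted p = 0.115). It passed without CRS 1, when the log2 fold change was 0.52 (edgeR adjusted p = 0.0145), and in DESeq2 (adjusted p = 0.000509), but not under the other alternatives, where the adjusted p reached 0.304. Of all tested genes, 994 were called in CRS against CON without CRS 1 and 156 by DESeq2. Flcn thus had its highest values in CRS, as Ppargc1a did; the contrasts share the CRS libraries.

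The 17 genes of the TCA cycle and respiratory chain all lay below 0 in C10 against CRS, between -0.52 and -0.06 with a median of -0.13, where the median of all tested genes was 0.0084. None was called. Cyc1, a cytochrome of complex III, averaged 117 ± 8.20 CPM in C10 and 136 ± 6.85 CPM in CRS (SD, n = 6 each; log2 fold change -0.22 ± 0.06; edgeR adjusted p = 0.146). Cox4i1, a subunit of cytochrome c oxidase, averaged 276 ± 27.9 CPM in C10 and 345 ± 49.1 CPM in CRS (-0.32 ± 0.10; edgeR adjusted p = 0.170). No C10 library was above the CRS median for either gene, though the ranges overlapped.

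In CRS against CON 15 of the same 17 genes lay above 0, with a median of 0.066 against 0.0045 for all tested genes. This contrast shares its CRS libraries with C10 against CRS, so high CRS values enter both with opposite sign. The opposite signs are thus not separate results, here or in the other pathway lists. Cox5a, another subunit of cytochrome c oxidase, stood at 56.0 ± 7.79 CPM in CRS and at 42.8 ± 3.93 CPM in CON (0.39 ± 0.11; edgeR adjusted p = 0.212), and Cox4i1 stood at 345 ± 49.1 CPM in CRS and 278 ± 24.2 CPM in CON (0.31 ± 0.10; edgeR adjusted p = 0.226). Both passed when CRS 1 was left out, Cox5a at 0.44 and Cox4i1 at 0.36. In that setting 7 of the 103 pathway genes were called in place of 0, and 994 of all tested genes in place of 1. The 7 are therefore not read as a result about the pathway. With each library left out, the edgeR adjusted p ran from 0.0321 to 0.398 for Cox5a and from 0.0317 to 0.440 for Cox4i1. In C10 against CON the list was split, 5 above and 12 below 0, with a median of -0.05 against 0.012 for all tested genes. Atp5b, the beta subunit of ATP synthase, had -0.12 ± 0.07 there (edgeR adjusted p = 0.449).

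Among 19 tested genes of fatty acid oxidation and PPAR alpha targets, the median was -0.12 in C10 against CRS (5 above and 14 below 0), -0.11 in C10 against CON (6 above and 13 below) and 0.0043 in CRS against CON (10 above and 9 below). None was called. Fabp3, a fatty acid-binding protein, was low throughout and averaged 0.988 ± 0.223 CPM in C10, 2.19 ± 0.691 CPM in CRS and 1.85 ± 0.707 CPM in CON (SD, n = 6 each). Its log2 fold change was -1.15 ± 0.28 in C10 against CRS, with no overlap between the groups (edgeR adjusted p = 0.105), and -0.90 ± 0.28 in C10 against CON (edgeR adjusted p = 0.188). Plin2, a coat protein of lipid droplets, averaged 37.1 ± 2.60 CPM in C10, 46.1 ± 6.77 CPM in CRS and 49.2 ± 5.89 CPM in CON. In C10 against CON its groups did not overlap, and the log2 fold change was -0.41 ± 0.10 (edgeR adjusted p = 0.110). Plin2 passed without CRS 1 (-0.41; edgeR adjusted p = 0.0444), without CRS 2 and 5, with the C10 and CON libraries alone and in DESeq2 (adjusted p = 0.0150), and elsewhere the adjusted p reached 0.280. In those settings 110, 74, 161 and 321 of all tested genes were called, in that order, against 29 in the main fit. The thiolase Acaa2 (0.23 ± 0.09; edgeR adjusted p = 0.299) and the trifunctional protein subunit Hadhb (0.14 ± 0.07; edgeR adjusted p = 0.375) had the smallest p in CRS against CON.

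The 17 genes that maintain and transcribe mitochondrial DNA had medians of -0.06 in C10 against CRS, -0.01 in C10 against CON and 0.02 in CRS against CON, and none was called. Ssbp1, which binds single-stranded mitochondrial DNA, averaged 17.7 ± 1.52 CPM in C10, 21.3 ± 4.72 CPM in CRS and 17.4 ± 0.591 CPM in CON. Its log2 fold change was -0.27 ± 0.11 in C10 against CRS (edgeR adjusted p = 0.310) and 0.30 ± 0.11 in CRS against CON (edgeR adjusted p = 0.271); without CRS 4 these were -0.16 and 0.18. The protease Lonp1 had -0.21 ± 0.08 in C10 against CRS (edgeR adjusted p = 0.240), and the mitochondrial RNA polymerase Polrmt had -0.16 ± 0.09 in CRS against CON (edgeR adjusted p = 0.445), and -0.10 without CRS 4. In C10 against CON the smallest p belonged to Primpol, a primase-polymerase (0.48 ± 0.19; edgeR adjusted p = 0.296), and Top1mt, the mitochondrial topoisomerase (-0.21 ± 0.10; edgeR adjusted p = 0.383).

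The 28 regulators upstream of Ppargc1a, which include kinases, calcineurin and cyclic AMP factors, had medians of 0.07 in C10 against CRS (19 above and 9 below 0), -0.04 in C10 against CON (11 above and 17 below) and -0.08 in CRS against CON (8 above and 20 below). Beside Flcn, the smallest p belonged to the kinase Stk11 in C10 against CRS (-0.20 ± 0.06; edgeR adjusted p = 0.190). In C10 against CON it belonged to the calcineurin subunit Ppp3cb (0.23 ± 0.08; edgeR adjusted p = 0.224) and Atf2, a factor that binds the Ppargc1a promoter (0.15 ± 0.07; edgeR adjusted p = 0.334). In CRS against CON, beside Flcn, it belonged to the stress kinase p38 alpha, Mapk14 (-0.31 ± 0.11; edgeR adjusted p = 0.251). Mapk14 was called without CRS 1 (-0.40), where 994 of all tested genes were called. With each library left out its edgeR adjusted p ran from 0.0291 to 0.491.

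Among 22 tested coregulators and receptor partners the medians were 0.02 in C10 against CRS, -0.03 in C10 against CON and -0.01 in CRS against CON, with 0 called. The corepressor Nrip1, which opposes PGC-1 alpha at shared receptors, averaged 43.9 ± 6.82 CPM in C10, 38.4 ± 8.94 CPM in CRS and 48.4 ± 4.22 CPM in CON. Its log2 fold change was 0.19 ± 0.13 in C10 against CRS (edgeR adjusted p = 0.564) and -0.33 ± 0.13 in CRS against CON (edgeR adjusted p = 0.280). Without CRS 1 it was called in CRS against CON at -0.46, where 994 of all tested genes were called. With each library left out, the edgeR adjusted p of Nrip1 in CRS against CON ran from 0.0317 to 0.527. The acetyltransferase Ep300 (0.17 ± 0.12 in C10 against CRS; edgeR adjusted p = 0.586), the receptor partner Rxra (-0.19 ± 0.09 in C10 against CON; edgeR adjusted p = 0.380) and the chromatin remodelling subunit Smarcd1 did not pass. Single libraries moved several of these: Ep300 was 0.10 without CRS 4 and 0.27 without CRS 1, Nrip1 in C10 against CRS was 0.11 without CRS 5 and 0.32 without CRS 1, and Rxra was -0.12 without C10 6. Smarcd1 had 0.14 ± 0.07 in C10 against CON (edgeR adjusted p = 0.434) and 0.16 ± 0.07 in CRS against CON (edgeR adjusted p = 0.339).

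**Figure D4:**
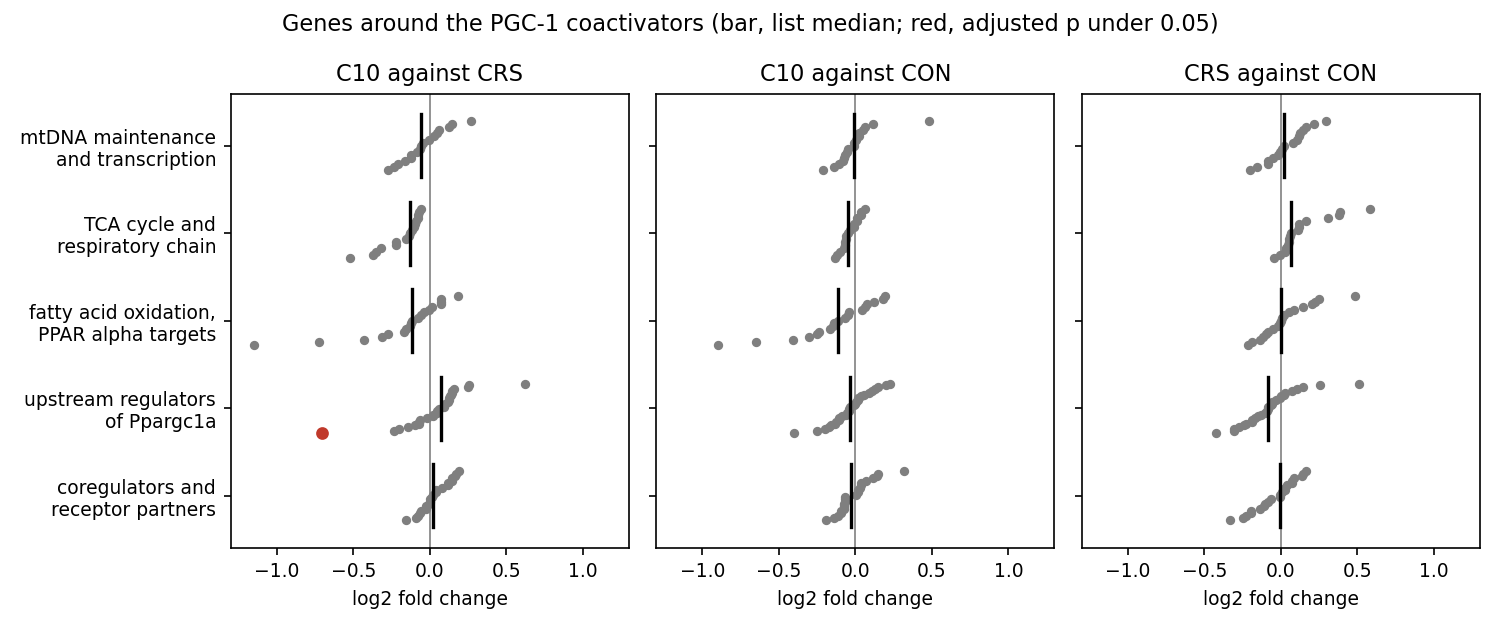
Log2 fold changes of the 103 tested pathway genes (points) by list, in C10 against CRS, C10 against CON and CRS against CON, with the median of each list as a bar. Flcn, at -0.70 in C10 against CRS, is the only gene at an edgeR adjusted p under 0.05 (red); the TCA cycle and respiratory chain genes all lie left of 0 in that panel, with a median of -0.13.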

How the data were processed

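Poly(A) RNA of mouse nasal mucosa was measured in 18 libraries. Raw read counts per gene were deposited as whole numbers, and the deposited FPKM values derive from those counts, to judge by the numbers: the library sizes they imply are 0.989 to 1.02 times the TMM-scaled sizes. The build is mm10, per the submitters' processing notes. Not given in the sources used here are aligner, read counter and gene annotation. All columns matched a library, and 0 were left over.

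Counts were tested with edgeR 4.0.16 in R 4.3.3, using filterByExpr by group (18291 of 54532 genes kept), TMM factors and the quasi-likelihood F-test. The fit held all 18 libraries and a mean for each group. Tests were two-sided, with Benjamini-Hochberg adjustment over all tested genes, and an adjusted p under 0.05 counts as called. Biological coefficients of variation averaged 0.264 (the common estimate). Every one of the 153 pairs of libraries differed beyond sampling noise (chi-square per degree of freedom of at least 13.5), so no library appears under 2 names. Counting error was not separated from the spread between libraries. It can be as large as that spread for genes of low count, such as Ppargc1b with 61 to 135 counts per library, or of narrow spread, such as Sirt1.

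The members, pathway lists, marker lists and tests were chosen with earlier results of these data known. Named by rule were all members, the 2 genes of smallest p per pathway list and comparison plus any called, and the 5 genes most like Ppargc1a by each measure. A gene named by this rule is not reported here. Alternatives were RLE size factors, no filter, at least 1 CPM in 6 libraries as a stricter filter, a block for the replicate number, a fit of the compared groups alone, DESeq2 1.42.0, limma 3.58.1 on log2(FPKM + 1) and log2(FPKM + 0.1), each library left out, and CRS 2 and 5 left out together. Promoter sequences are from RefSeq (GRCm38.p6), matched by symbol.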

Additional observations from a re-analysis of the deposited data

Results flagged for a closer look

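Of 27 sets of 6 libraries (9 members in 3 groups), 4 held a library set apart from the others of its group, by a gap of over 0.625 of the group's range. Chance flags about 1 in 20 such sets. CRS 1 stood apart for Pprc1 and for Gabpa. Its Pprc1 was 38.2 CPM, with the next CRS library at 23.8 CPM and a gap of 0.659 of the range, and its Gabpa was 54.2 CPM, with the next at 43.7 CPM and a gap of 0.755. In CON 1, Esrra was 69.2 CPM, with the next CON library at 63.2 CPM and a gap of 0.670. In CON 6, Gabpa was 41.0 CPM, with the next at 47.2 CPM and a gap of 0.693. For Ppargc1a no library stood apart in this way in any group.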

How the results depend on the processing

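Over the alternatives run, the fold change of Ppargc1a was 0.74 to 0.94 in CRS against CON and -0.74 to -0.55 in C10 against CRS. Its direction was set by the selection and by ranges without overlap, so nothing is read from the unchanged sign. Members called, which follow from the choice of Ppargc1a, are given as counts only. With the replicate number as a block, and with only the groups compared, 0 of the 9 members were called in either contrast, against 1 each. With each library left out, members called ran from 0 to 1 in both. The labels do not say that a replicate number marks a shared mouse or day, and not every pair correlated above 0.1, so the numbers were not taken to pair the libraries. Same-numbered deviations correlated at -0.57 to 0.23 in CRS against CON, -0.23 to 0.52 in C10 against CRS and -0.42 to 0.19 in C10 against CON, with 3, 4 and 1 of 6 pairs above 0.1. In C10 against CRS 3 of 6 numbers matched best with themselves, a hint from the data and not from the design, and in each of the other contrasts 1 did. In C10 against CON the 12 genes called under the block compare with 29 without it.

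Counts over all genes depended strongly on the tool and on single libraries, and the cause was not tested. In CRS against CON, 1 gene was called, 3 with the stricter filter, 0 with the block and with the 2 groups alone, 156 by DESeq2, 2 by limma on either FPKM scale, and 0 to 994 with each library left out (994 without CRS 1). In C10 against CRS, 15 were called, 23 with the stricter filter, 9 with the 2 groups alone, 338 by DESeq2, 23 by limma on log2(FPKM + 1), 100 without CRS 2 and 5, and 7 to 81 with each library left out (81 without CRS 2). In C10 against CON, 29 were called, 17 with no filter, 161 with the 2 groups alone, 321 by DESeq2, 74 without CRS 2 and 5, and 3 to 110 with each library left out (3 without C10 4, 110 without CRS 1). Pathway genes called were 1 by DESeq2 and 0 to 7 with each library left out in CRS against CON, 4 by DESeq2 in C10 against CRS, and 1 with the 2 groups alone, by DESeq2 or without CRS 2 and 5, and 0 to 1 with each library left out, in C10 against CON.

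Small fold changes moved with single libraries: Gabpa in CRS against CON ran from -0.17 without CRS 1 to -0.07 without CRS 5, and Tfam in C10 against CRS from -0.13 without C10 6 to -0.04 without C10 2. Signs turned where values were near 0. Ppargc1b in C10 against CON was -0.00070 on log2(FPKM + 0.1) and -0.0621 to 0.0681 with each library left out. The correlation of Ppargc1a turned with Ppargc1b (0.0792 without CRS 4 and 6, 0.41 within C10, 0.0776 within CON), Esrra (0.21 within CRS), Nrf1 (-0.0877 by Spearman, -0.29 within C10, -0.0854 within CRS), Gabpa (-0.45 within CON), Ppara (-0.69 within CRS) and Sirt1 (0.39 within CON).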
